A study of Mus musculus with 4 samples.

Results

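RNA of 10 genes of the inflammasome and pyroptosis machinery was described in mouse bone marrow macrophages: the sensors Nlrp3, Nlrp1b, Nlrc4, Naip2 and Naip5, the adaptor Pycard, the inflammatory caspases Casp1 and Casp4, and the gasdermins Gsdmd and Gsdme. The genes were taken by symbol, and all 10 were found among the 18256 genes listed for each library. M1 macrophages were wild-type (WT) bone marrow cells grown for 7 days with 20 ng/ml macrophage colony-stimulating factor (MCSF) and given 20 ng/ml interferon-gamma (IFN-γ) and 100 ng/ml lipopolysaccharide (LPS, the outer membrane lipid of Gram-negative bacteria) for 24 h from day 6. M0 macrophages were WT bone marrow cells grown in the same way and kept in MCSF alone for those 24 h. There were 4 libraries, 2 in each group. Strain, sex and age were not given in the sources used here, nor whether MCSF stayed in the M1 medium or whether the replicates were separate animals or cultures. The p-values therefore measure the spread between these libraries, which may be technical.

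Inflammasomes are protein complexes that cells of the innate immune system assemble in the cytosol when a sensor detects a microbial product or cell damage. The sensor recruits the adaptor ASC, encoded by Pycard, which gathers caspase-1, and the active protease matures interleukin-1β and interleukin-18. Caspase-1, and the LPS-binding caspase-11 encoded in mice by Casp4, also cleave gasdermin D, whose fragment forms pores in the plasma membrane and leads to the lytic death called pyroptosis. In macrophages a first signal such as LPS raises the amount of some of these components, a step known as priming, and a later signal triggers assembly.

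The libraries held 17633945 and 17838606 counts in M1 and 15921466 and 18987705 in M0, and the smallest count of a member was 179, with an exact 95% Poisson interval of 154 to 207 that covers counting error only. Levels are in CPM, the counts divided by library size and multiplied to a common total, with library sizes scaled by the trimmed mean of M-values (TMM), and they are levels in bulk RNA, so fewer cells that make a transcript and less of it per cell cannot be told apart. All 10 macrophage markers examined, Adgre1 and Csf1r among them, had counts in every library. Summed neutrophil markers were at 150 and 111 CPM in M1, against 243 and 255 CPM in M0, with 7 of 9 tested markers lower, 1 higher, and the defining marker Ly6g at 0 in M1 and at 10 counts over M0. Summed stromal markers were at 456 and 516 CPM in M1, against 705 and 683 CPM in M0, with 3 of 6 lower and 3 higher. Summed B cell markers were at 36.0 and 38.2 CPM in M1, against 150 and 138 CPM in M0. Most of that was Ighm (34.2 CPM in M1 and 139 CPM in M0, called lower), with 82 counts of Cd79b over M1 and 177 over M0 and Ms4a1 at 0 in every library. Summed dendritic cell markers were at 4.43 and 2.40 CPM in M1, against 10.1 and 8.64 CPM in M0, with 3 of 4 tested lower and 1 higher. Summed T and NK cell markers were at 3.39 and 4.31 CPM in M1, against 1.06 and 0.290 CPM in M0. Of these, Cd247 had 116 counts over M1 and 0 over M0 and was called higher, and Cd3g, Ncr1 and Gzma were at 0 in every library.

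RNA of more than 5 of the 10 genes was more abundant after stimulation. Nlrp3, Naip2, Nlrc4, Casp1, Casp4 and Gsdmd rose in M1, Nlrp1b and Gsdme fell, and Naip5 and Pycard did not pass the test (edgeR quasi-likelihood test, adjusted p under 0.05 over 12966 tested genes). Thus 6 of the 10 members were called higher, against 24.2% of all tested genes, and 2 were called lower, against 24.0% of all tested genes. Calls in either direction covered 8 members and 48.2% of tested genes. The median log2 fold change of M1 over M0 was 0.85 over the members and -0.02 over all tested genes. The libraries of the groups did not overlap for 9 of the 10 members, and the same held for 74.9% of tested genes, with M1 above M0 for 37.0% and below it for 38.0%, so separation by itself was common. As a share of all counts, the 10 genes together took 0.113% and 0.114% in M1, against 0.0520% and 0.0512% in M0.

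**Figure D1:**
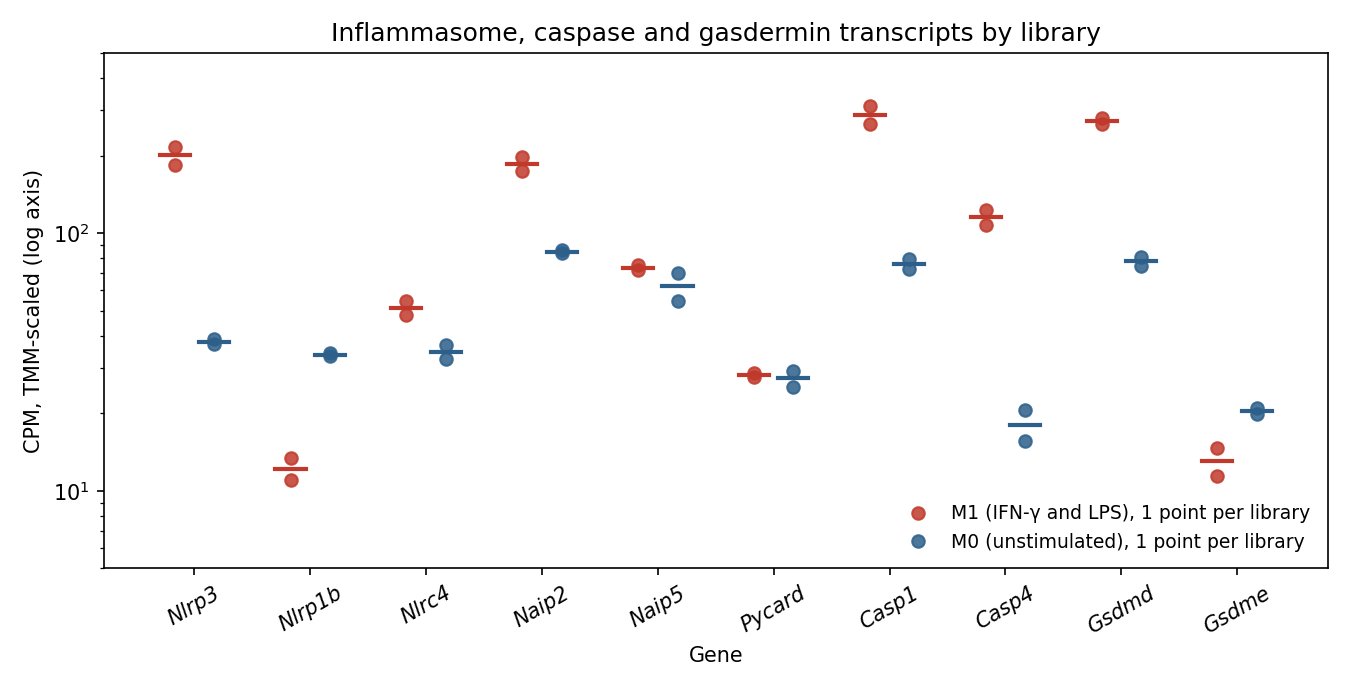
TMM-scaled CPM (log axis) of each of the 10 genes in every library, with M1 in red at the left of each pair and M0 in blue at the right; points are libraries and bars are means of 2. The M1 libraries lie above both M0 libraries for Nlrp3, Nlrc4, Naip2, Naip5, Casp1, Casp4 and Gsdmd, below them for Nlrp1b and Gsdme, and between them for Pycard.

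Among the 5 sensors of the set, Nlrp3 changed most. NLRP3 responds to a broad range of insults, many of them linked to potassium efflux, and its gene (chr11:59541568-59566956, plus strand, GENCODE M21 on GRCm38, the assembly that mm10 names) is a known target of NF-κB. Nlrp3 stood at 184 and 217 CPM in M1, against 37.1 and 38.8 CPM in M0. Both M1 libraries were far above both M0 libraries, and the rise was 5.28-fold (log2 fold change 2.40, SE 0.12, adjusted p = 2.34e-08). By this fold Nlrp3 ranked above 95.9% of tested genes. Its mean CPM, not corrected for transcript length, exceeded that of 91.9% of tested genes in M1 and of 60.4% in M0.

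The promoter sequences of the pair of members with the largest rises, Casp4 and Nlrp3, are shown because LPS and IFN-γ act on genes through transcription factors whose motifs can be looked for there. They are the 250 bases before an annotated start, from RefSeq on GRCm38.p6, 5′ to 3′ in the sense of the gene, with matches to the κB motif of NF-κB in capitals. The Casp4 window lies at chr9:5308599-5308848 (plus strand) and the window before the upstream one of 2 annotated starts of Nlrp3 at chr11:59541319-59541568 (plus strand). Only this window of Nlrp3 holds a κB match. The window before the downstream start (chr11:59542436-59542685), not printed, holds none.
Casp4: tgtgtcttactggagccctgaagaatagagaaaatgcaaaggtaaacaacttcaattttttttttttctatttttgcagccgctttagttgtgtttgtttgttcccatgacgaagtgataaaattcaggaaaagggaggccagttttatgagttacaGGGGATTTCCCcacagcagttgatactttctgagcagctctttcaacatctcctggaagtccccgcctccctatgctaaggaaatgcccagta
Nlrp3: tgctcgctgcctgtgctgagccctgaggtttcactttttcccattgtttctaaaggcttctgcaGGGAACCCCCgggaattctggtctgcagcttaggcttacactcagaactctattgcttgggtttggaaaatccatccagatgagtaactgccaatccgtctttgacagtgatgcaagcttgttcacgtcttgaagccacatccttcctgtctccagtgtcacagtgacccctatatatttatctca
In Casp4 a pair of overlapping κB matches spans bases 93 to 83 before the start, and in Nlrp3 1 match spans bases 186 to 177. Promoters of 9 members were found in the RefSeq table, 12 start sites in all. A κB match on either strand was present at 4 of those 12 starts, in 3 genes: Casp4 (2 starts that lie 11 bases apart and share the match), Nlrp3 and Naip5. In all 32851 promoters of the table, 3.9% held one. None of the 12 held a match, on either strand, to 3 other motifs. These were GAAA, any 2 bases and GAAA again (the interferon-stimulated response element, in 2.98% of all promoters), TTCNNNGAA (the IFN-γ-activated site, in 7.02%), and GGAA, any 2 bases and GAAA (an ETS and IRF composite element, in 2.3%). The first and last of these motifs overlap in their letters. A match describes the letters in this window only, and Naip5, which holds one, did not pass the test for a change.

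Nlrp1b went down. Its protein is cut and set off, in some mouse strains, by the lethal factor protease of anthrax, and the peptidases DPP8 and DPP9 hold it in check. Nlrp1b (chr11:71153102-71230733, minus strand) had 11.0 and 13.4 CPM in M1, against 34.3 and 33.3 CPM in M0. Every M1 library was below every M0 library, at 0.361 times the M0 level (log2 fold change -1.47, SE 0.16, adjusted p = 1.89e-05). The neutrophil, stromal, B cell and dendritic cell marker sums given above were lower in M1 too, and their part in this fall was not tested. The neighbouring paralog Nlrp1a (chr11:71092236-71144704) moved the other way, with 11.7 ± 4.09 CPM in M1 and 4.15 ± 0.443 CPM in M0 (SD, n = 2; log2 fold change 1.496, adjusted p = 0.00137). Nlrp1a did not pass once either M0 library was left out, with adjusted p = 0.082 for replicate 1 and 0.06 for replicate 2. Nlrp1c-ps, an annotated pseudogene on the other side of Nlrp1b, was lower, at 2.15 ± 1.57 CPM in M1 and 5.83 ± 1.19 CPM in M0 (log2 fold change -1.44, adjusted p = 0.0234). It lost its call without M0 replicate 1 (0.272), without M0 replicate 2 (0.152) and without M1 replicate 1 (0.0866), and reached -2.46 without M1 replicate 2. Counts of Nlrp1a and Nlrp1b summed to 1 feature were at 19.8 and 27.9 CPM in M1, against 38.1 and 37.8 CPM in M0, a log2 fold change of -0.67 (adjusted p = 0.00686). Of the 50-base words of Nlrp1b transcripts in the reference annotation, 1.45% occur in transcripts of another gene. Read length and strain are not given in the sources used here, and how reads were shared among the paralogs was not tested.

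The NAIP proteins bind bacterial components directly and hand the signal to NLRC4. NAIP2 recognises the rod protein of bacterial type III secretion systems and NAIP5 recognises flagellin, and neither NAIP assembles a complex without NLRC4. Naip2 (chr13:100144063-100202092, minus strand) had 175 and 198 CPM in M1, against 85.9 and 83.7 CPM in M0. The rise was 2.19-fold, with no overlap between groups (log2 fold change 1.13, SE 0.10, adjusted p = 4.78e-06). Nlrc4 (chr17:74425438-74459142, minus strand) had 48.2 and 54.3 CPM in M1, against 36.8 and 32.5 CPM in M0. This 1.48-fold rise passed (log2 fold change 0.56, SE 0.13, adjusted p = 0.00409), but not without M0 replicate 2 (0.48, adjusted p = 0.0909) and not with library totals as the only scaling (0.31, adjusted p = 0.068). Naip5 (chr13:100211739-100246323, minus strand) had 72.1 and 75.0 CPM in M1, against 70.3 and 54.6 CPM in M0. The lower of the M1 libraries lay just above the higher of the M0 libraries, and the difference did not pass (log2 fold change 0.23, SE 0.13, adjusted p = 0.168). Its sign turned to -0.02 with library totals.

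Naip2 and Naip5 lie 9646 bases apart on the same strand. Their promoters are set side by side because these neighbours were alike near the start and Naip2 passed the test while Naip5 did not, a difference that was not itself tested. These are the most alike 80 bases of the windows before their starts (RefSeq, GRCm38.p6, minus strand), at chr13:100202128-100202207 for Naip2 and chr13:100247349-100247428 for Naip5, with differing bases in capitals.
Naip2: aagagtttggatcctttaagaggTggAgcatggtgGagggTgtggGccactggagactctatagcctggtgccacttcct
Naip5: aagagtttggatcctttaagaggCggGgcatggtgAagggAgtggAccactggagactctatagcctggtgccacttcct
The stretches agree at 75 of 80 bases (93.8%) and end 6 bases before the RefSeq start in Naip2 and 13 bases before it in Naip5. Both RefSeq starts lie upstream of the 5′ ends in the GENCODE M21 coordinates given above, 100202092 for Naip2 and 100246323 for Naip5. The genes are also alike in their transcripts, so that reads can be lost or misplaced between them. In Naip5, 36.9% of 50-base words and 16.2% of 100-base words occur in transcripts of another gene, Naip6 and Naip3 foremost, and in Naip2 the shares are 19.1% and 4.44%. How the authors' counting treated such reads, and their length, are not given in the sources used here, so both values are uncertain to that extent. Naip6 did not pass, with 51.2 ± 12.7 CPM in M1 and 42.3 ± 2.88 CPM in M0 (SD, n = 2; adjusted p = 0.188), although it passed without M1 replicate 1 (adjusted p = 0.0121). Naip1 was near the floor, with 19 counts over M1 and 36 over M0. Summed to 1 feature, Naip1, Naip2, Naip5 and Naip6 had 289 and 334 CPM in M1, against 202 and 179 CPM in M0 (log2 fold change 0.71, SE 0.11, adjusted p = 0.000279).

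The adaptor gene showed no detectable change. Pycard (chr7:127989708-127993867, minus strand) had 28.8 and 27.8 CPM in M1, against 25.3 and 29.3 CPM in M0. Both M1 libraries lay between the M0 libraries (log2 fold change 0.05, SE 0.14, adjusted p = 0.795). Its sign depends on the scaling and the libraries, at -0.05 with upper-quartile factors, -0.20 with library totals and -0.05 without M0 replicate 1. A tentative gene model, Gm45205, covers 485 exonic bases of Pycard (12.8% of its exons) on the opposite strand. Whether reads were counted by strand is not given in the sources used here, so reads of the pair cannot be told apart in that stretch.

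Both inflammatory caspase genes rose, and Casp4 had the largest fold of the 10. Caspase-11, its product in mice, binds the lipid A part of LPS in the cytosol and needs no other sensor. Casp4 (chr9:5308828-5336783, plus strand) had 123 and 108 CPM in M1, against 15.6 and 20.5 CPM in M0. The rise was 6.42-fold (log2 fold change 2.68, SE 0.15, adjusted p = 7.1e-08), above that of 96.5% of tested genes. Casp1, the protease at the end of the NLRP3, NLRP1B and NLRC4 routes, lies 1562 bases before it on the same strand (chr9:5298517-5307265). Casp1 had 312 and 264 CPM in M1, against 72.5 and 79.5 CPM in M0, a 3.79-fold rise (log2 fold change 1.92, SE 0.11, adjusted p = 1.25e-07). In M0 the CPM of Casp1 was already above that of 77.6% of tested genes, whereas Casp4 exceeded 42.9%, without correction for transcript length. The next gene downstream, Casp12, whose product is a caspase of the endoplasmic reticulum in rodents, lies past Casp4 (chr9:5345430-5373032) and was barely present. It had 17 counts over M1 and 83 over M0 and was called lower (log2 fold change -2.02, SE 0.62, adjusted p = 0.0198). The call on Casp12 was lost without M0 replicate 1 (0.194), without M0 replicate 2 (0.0767) and without M1 replicate 2 (0.0953). No 50-base word of Casp1 and 0.24% of those of Casp4 occur in transcripts of another gene.

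The gasdermins went opposite ways. Gasdermin D is the pore-forming substrate of caspase-1 and caspase-11, and its gene (chr15:75862327-75867408, plus strand) had 279 and 264 CPM in M1, against 74.9 and 80.7 CPM in M0. Gsdmd thus rose 3.49-fold (log2 fold change 1.80, SE 0.10, adjusted p = 7.09e-08), with all M1 values far above the M0 values. Gasdermin E is another pore-forming member of the family and can turn apoptosis into a lytic death. Gsdme (chr6:50188888-50263862, minus strand) had 11.4 and 14.7 CPM in M1, against 21.1 and 19.8 CPM in M0. It was lower at 0.638 times the M0 level, without overlap (log2 fold change -0.65, SE 0.18, adjusted p = 0.0121). This is the least firm call among the members: it was lost without M1 replicate 1 (-0.48, adjusted p = 0.0754), without M0 replicate 1 (-0.60, 0.136) and without M0 replicate 2 (-0.69, 0.0976). The same 4 marker sums, of neutrophils, stroma, B cells and dendritic cells, were lower in M1 as well, and their part in the fall of Gsdme was not tested.

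**Figure D2:**
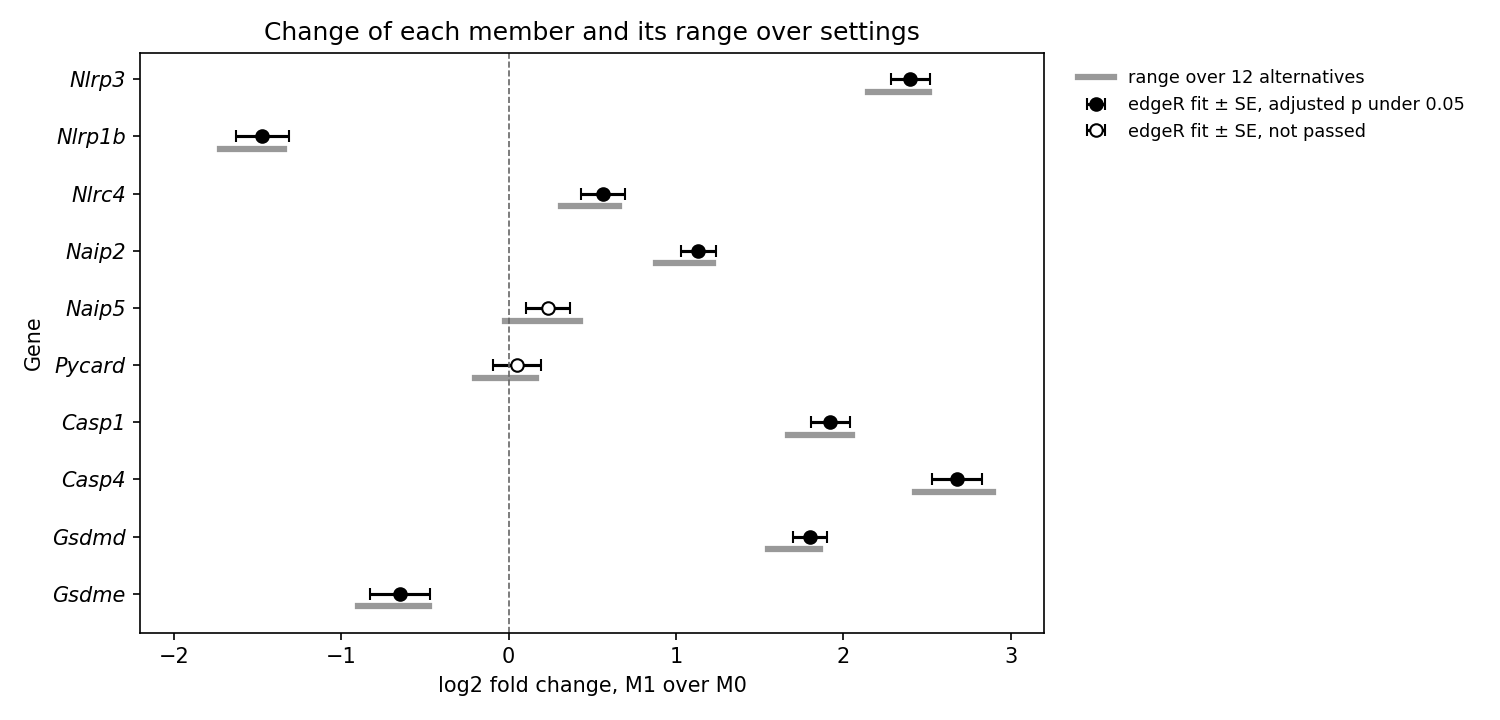
Log2 fold change of M1 over M0 for each gene, with points and whiskers for the edgeR estimate ± SE (filled where adjusted p is under 0.05) and grey bars for the range over 12 alternatives of scaling, test, filter, block and left-out library. The ranges of Nlrp3 (2.15 to 2.51), Casp4 (2.43 to 2.89) and Casp1 (1.67 to 2.05) stay far above 0, and those of Naip5 and Pycard cross it.

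Levels of different genes are compared per kilobase of the RefSeq-matched transcript, as CPM per kb. In both groups Casp1 was first and Gsdmd second. Casp1 had 193 ± 22.6 CPM per kb in M1 and 50.8 ± 3.33 in M0 (SD, n = 2), and Gsdmd had 151 ± 5.80 CPM per kb in M1 and 43.4 ± 2.30 in M0. The order below them differed between the groups. In M1 it ran Casp4 (80.5 CPM per kb), Nlrp3 (49.8), Naip2 (38.6), Naip5 (14.1), Nlrc4 (10.8), Pycard (7.44), Gsdme (6.12) and Nlrp1b (2.95), and no neighbours in this order overlapped between their 2 libraries. In M0 it ran Naip2 (17.6 CPM per kb), Casp4 (12.6), Naip5 (13.5 and 10.5 in its 2 libraries), Gsdme (9.58), Nlrp3 (9.43), Nlrp1b (8.17), Nlrc4 (7.32) and Pycard (7.19). There the libraries overlapped between Casp4 and Naip5, between Gsdme and Nlrp3, and between Nlrc4 and Pycard. With the union of all annotated exons as the length, Casp4 fell to place 5 in M1 and 9 in M0 and Gsdme to place 10 in both groups, while Casp1 and Gsdmd kept the first and second places. By that length Nlrp3, Nlrc4 and Pycard stood at places 5, 6 and 7 in M0, so Pycard was not last there.

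Ratios of 2 genes within a library do not depend on how libraries are scaled. Counts of Nlrp3 over those of Pycard were 6.39 and 7.80 in M1, against 1.46 and 1.32 in M0, a difference of 2.34 on the log2 scale. Nlrp3 RNA thus gained on that of the adaptor in both M1 libraries. Gsdmd over Gsdme was 24.5 and 17.9 in M1, against 3.56 and 4.07 in M0 (2.46). Casp4 over Casp1 was 0.394 and 0.408 in M1, against 0.215 and 0.258 in M0 (0.77), so Casp4 RNA gained on Casp1 RNA. Naip5 over Naip2 moved the other way, at 0.412 and 0.380 in M1, against 0.819 and 0.652 in M0 (-0.88). The groups did not overlap in any of these 4 ratios. Separation of other gene pairs was not counted, and 74.9% of single tested genes separated. For Gsdmd over Gsdme it follows from each gene separating in opposite directions. No p is given because an exact 2-sided permutation test of 2 against 2 cannot go below 0.33.

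**Figure D3:**
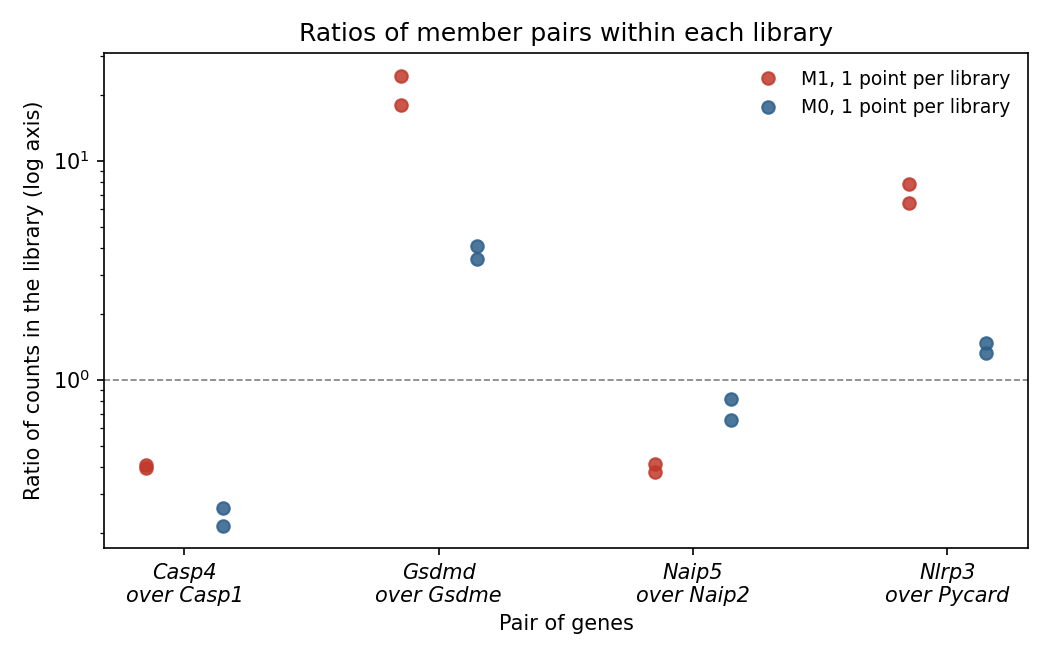
Ratio of the counts of 2 genes in each library (log axis) for 4 pairs, with M1 in red at the left and M0 in blue at the right; each point is a library and the dashed line marks equal counts. M1 lies above M0 for Casp4 over Casp1, Gsdmd over Gsdme and Nlrp3 over Pycard, and below it for Naip5 over Naip2.

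Of 54 other genes of the pathway, in 7 lists by role, 43 were in the files and 39 were tested. Of these 17 were higher, 11 lower and 11 did not pass, with a median log2 fold change of 0.05, beside -0.02 over all tested genes, of which 24.2% were higher and 24.0% lower. These shares are the background for the counts of each list below. Both higher and lower calls became fewer once either M0 library was left out, which held over all tested genes too. Those fits keep 1 M0 library. Of 7 other inflammasome sensors, 2 were higher, 2 lower and 3 did not pass (median 0.27), shares near that background. Mefv, which encodes pyrin, the sensor mutated in familial Mediterranean fever, had 240 ± 14.0 CPM in M1 and 10.6 ± 3.31 CPM in M0 (SD, n = 2; log2 fold change 4.50, SE 0.18, adjusted p = 4e-09). That was a larger log2 fold change than for any of the 10 members. Nlrp10 fell to 1.54 ± 0.0864 CPM in M1, against 8.67 ± 0.290 CPM in M0 (-2.49, adjusted p = 4.87e-05). Nlrp1a and Nlrp1c-ps, described above, were the other called sensors. Aim2, the sensor of cytosolic DNA, did not pass, with 66.0 ± 1.77 CPM in M1 and 54.5 ± 1.41 CPM in M0 (0.28, adjusted p = 0.0565). The other gasdermin genes could not be tested: Gsdmc4 had 6 counts over M1 and 2 over M0, and Pjvk had none in any library.

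Of 7 other tested caspase genes, most of them of apoptosis, 3 were higher, 3 lower and 1 did not pass (median -0.11), beside 24.2% higher and 24.0% lower among all tested genes. Casp8, the initiator downstream of death receptors, rose, with 166 ± 9.17 CPM in M1 and 85.7 ± 0.350 CPM in M0 (SD, n = 2; log2 fold change 0.95, adjusted p = 1.42e-05). Casp9 did not pass (-0.11, adjusted p = 0.485), though it passed as lower with library totals (-0.37, adjusted p = 0.0336). Casp12, Casp2 (-0.57) and Casp6 (-0.52) were lower, the last pair named after their values were seen. Casp2 lost its call without M0 replicate 1 (adjusted p = 0.0575) and Casp6 without M0 replicate 1 (0.099), M0 replicate 2 (0.191) and M1 replicate 2 (0.137) and with DESeq2 (0.0682). None of the 3 lower calls, that of Casp12 included, held without M0 replicate 1.

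The cytokines that caspase-1 matures and the related alarmin Il1a rose with the machinery. Il1b had 3596 ± 46.4 CPM in M1 and 8.17 ± 4.02 CPM in M0 (log2 fold change 8.80, adjusted p = 5.67e-10, and 9.40 without M0 replicate 2), and Il1a had 778 ± 24.7 CPM in M1 and 2.86 ± 0.382 CPM in M0 (8.09). Il18, the second substrate of caspase-1, rose by less, with 66.8 ± 5.64 CPM in M1 and 17.6 ± 1.55 CPM in M0 (1.92, SE 0.13, adjusted p = 5.08e-07). This was close to the log2 fold changes of Casp1 (1.92) and Gsdmd (1.80). Ninj1, which ruptures the membrane after the gasdermin pore, did not pass, with 163 ± 2.89 CPM in M1 and 166 ± 4.45 CPM in M0 (-0.03, adjusted p = 0.834). It passed as lower with library totals (-0.28, adjusted p = 0.0278), and its sign turned without M0 replicate 2 (0.0034). Hmgb1, a nuclear protein released on lysis, did not pass either (-0.34, adjusted p = 0.0515), and it passed as lower under 6 of 12 alternatives.

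Of 10 genes that trigger or restrain the sensors, 5 were lower, 2 higher and 3 did not pass (median -0.48), beside 24.0% lower and 24.2% higher among all tested genes. Of the 5 lower genes, Kcnk6 (-0.69) and Panx1 (-0.66), named after their values were seen, did not pass without M0 replicate 1 (adjusted p = 0.0647 and 0.0588), and Panx1 also not without M0 replicate 2 (0.131) or M1 replicate 2 (0.0521). P2rx7, the ATP-gated channel whose potassium efflux activates NLRP3, fell to 154 ± 12.3 CPM in M1, against 337 ± 33.0 CPM in M0 (log2 fold change -1.13, SE 0.11, adjusted p = 6.85e-06). Nek7, the kinase that binds NLRP3 when it assembles, had 95.9 ± 6.70 CPM in M1 and 169 ± 1.31 CPM in M0 (-0.82, adjusted p = 5.17e-05). Nlrp3 was higher in M1, and a link between its change and those of P2rx7 and Nek7 was not tested. Nlrc3, a negative regulator of innate signalling, was lower at 5.88 ± 0.742 CPM in M1 and 14.8 ± 1.16 CPM in M0 (-1.33, adjusted p = 0.000375). Pstpip1, a partner of pyrin, rose to 83.0 ± 11.8 CPM in M1, against 41.1 ± 1.89 CPM in M0 (1.01, adjusted p = 6.29e-05). Brcc3, which deubiquitinates NLRP3, was higher (0.38, adjusted p = 0.0249), but not without M1 replicate 1 (0.0926), M0 replicate 1 (0.134) or M0 replicate 2 (0.122), with upper-quartile factors (0.0877), with library totals (0.419) or with the replicate block (0.053). Txnip did not pass (-0.15, adjusted p = 0.205), though it passed as lower with upper-quartile factors (-0.25, adjusted p = 0.0425) and with library totals (-0.40, adjusted p = 0.00372). The peptidase genes that restrain NLRP1B did not pass, Dpp8 at -0.30 (adjusted p = 0.0826) and Dpp9 at -0.02 (0.873). Dpp8 passed as lower under 4 of 12 alternatives: with upper-quartile factors (0.0231), with library totals (0.00514), with no low-count filter (0.0402) and without M1 replicate 2 (0.0327).

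Guanylate-binding proteins open pathogen vacuoles and expose LPS to caspase-11, and all 4 tested genes of that list rose by more than any of the 10 members (median log2 fold change 6.87). Gbp2 had 1040 ± 32.6 CPM in M1 and 5.96 ± 1.58 CPM in M0 (7.46, adjusted p = 1.06e-10), and Gbp5 had 560 ± 16.7 CPM in M1 and 2.58 ± 1.27 CPM in M0 (7.79, and 8.38 without M0 replicate 2). Gbp3 and Gbp7 rose by 6.27 and 6.02. Of 6 genes for transcription factors tied to the members, 3 rose, 1 fell and 2 did not pass (median 0.66), beside 24.2% higher and 24.0% lower among all tested genes. Irf1 (1.37, adjusted p = 1.79e-06) and Nfkb1 (1.27, adjusted p = 2.43e-06) rose. Irf8, which drives Naip genes in mouse macrophages, fell to 84.3 ± 1.84 CPM in M1, against 161 ± 5.96 CPM in M0 (-0.93, adjusted p = 1.59e-05). Naip2 was higher in M1, and a link between the changes of Irf8 and Naip2 was not tested. Irf2, known to drive Gsdmd, did not pass, with 73.7 ± 0.362 CPM in M1 and 71.4 ± 1.93 CPM in M0 (0.05, adjusted p = 0.746), nor did Rela (0.01, adjusted p = 0.953). The signs of Irf2 and Rela turn with upper-quartile factors and library totals, and that of Rela also without M1 replicate 1 or M0 replicate 1.

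**Figure D4:**
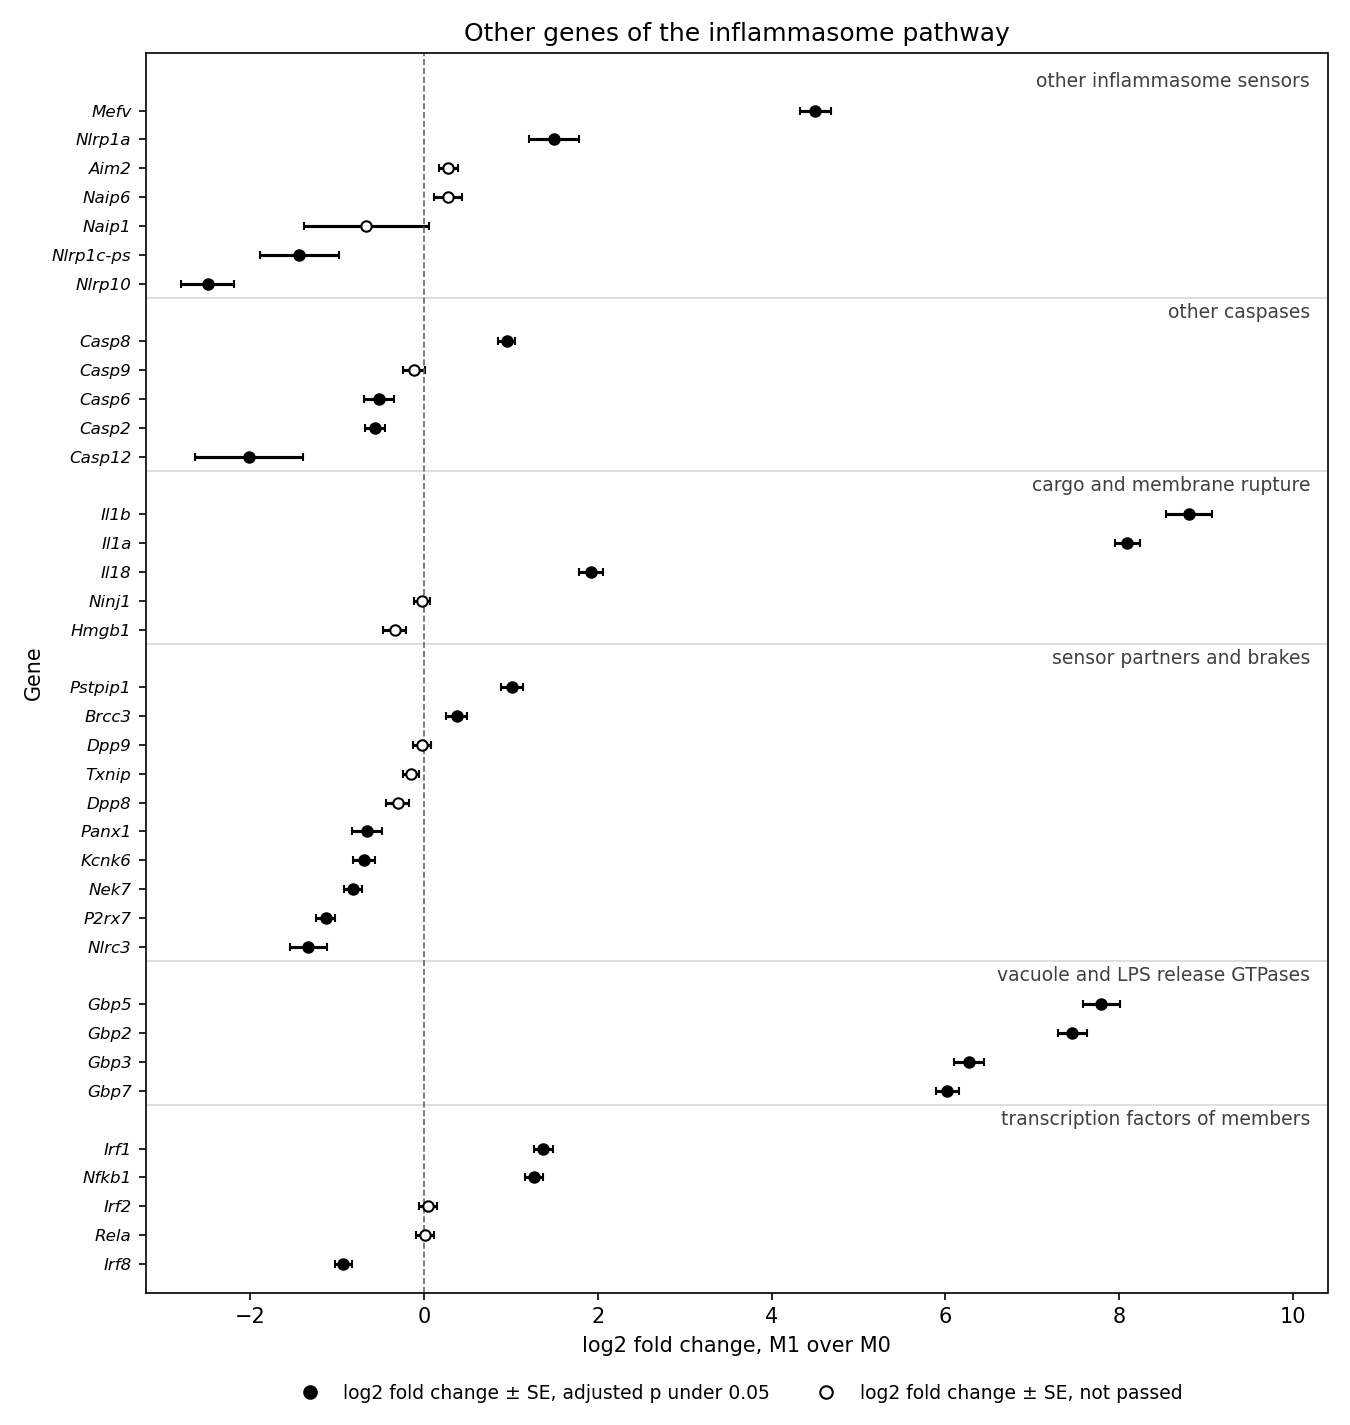
Log2 fold change of M1 over M0 with its SE for 36 of the 39 tested pathway genes outside the 10 members, grouped by list, with filled points for adjusted p under 0.05. The guanylate-binding protein genes, Il1b and Il1a lie above 6, and 5 of the 10 genes of the sensor partners list are called below 0.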

How the data were processed

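RNA-seq libraries of M1 and M0 mouse bone marrow macrophages (2 each) were analysed from the authors' deposited counts of reads per gene symbol. Per the submitters' processing notes these name featureCounts, Subread 2.0.1, DESeq2 1.30.1, R 4.0.4 and mm10. Annotation, strand setting and the treatment of reads that map to several genes are not given in the sources used here. Per the labels' protocols, ribosomal RNA was depleted from total RNA.

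The low-count filter filterByExpr (at least 10 counts and a total of at least 15) kept 12966 of 18256 genes. These were scaled by TMM and tested together with glmQLFit and glmQLFTest of edgeR 4.0.16 (group only, R 4.3.3) and Benjamini-Hochberg adjustment. SE is the absolute log2 fold change over the square root of F. The biological coefficient of variation was 10.9% with 2 residual degrees of freedom. A level of 3 counts equals 0.144 to 0.185 CPM. The test was tried on simulated data first. Within each group the 2 libraries differed beyond sampling noise (chi-square over degrees of freedom 13.3 in M1 and 9.15 in M0).

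The members, lists and tests were chosen with earlier results of these data known. The naming rule takes all members and, from each list, up to 4 called genes with the largest change, up to 2 called the other way, and values of genes that did not pass; Casp2, Casp6, Kcnk6 and Panx1, outside it, were named after their values were seen. Of the listed genes, 11 are not analysed here, and some results are not reported here. Alternatives were other scaling factors, DESeq2 1.42.0, limma-voom (limma 3.58.1), no filter, a filter of 1 CPM in 2 libraries and 50 counts, a replicate block, leaving out 1 library at a time and family sums. Coordinates, lengths and shared words come from GENCODE M21 (GRCm38), and promoters from RefSeq (GRCm38.p6).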

Additional observations from a re-analysis of the deposited data

How the results depend on the processing

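Nlrp3, Naip2, Casp1, Casp4, Gsdmd and Nlrp1b kept their direction and call in all 12 alternatives. In each, 5 or 6 members were higher. The median over all genes shifted by -0.25 (log2) with library totals and by -0.10 with upper-quartile factors. With library totals 2024 genes were higher and 4776 lower (main counts 3140 and 3109), Pycard stood at -0.20 and Naip5 at -0.0196, and 29.8% of calls were higher instead of 50.2%; with upper-quartile factors Pycard stood at -0.0526 and 41.0% of calls were higher. With each library left out in turn, 1691 to 2966 genes were higher and 1463 to 2855 lower (1691 and 1463 without M0 replicate 1, 1832 and 1549 without M0 replicate 2), 1 to 2 members and 5 to 11 pathway genes were lower, and Pycard ranged from -0.0505 to 0.161; the cause was not tested, beyond the fewer samples in those fits, whose lone library is assumed to vary like the other group. Labels share replicate numbers without saying what they mark, and deviations of same-numbered libraries from their group means were weakly negatively correlated (-0.15). With the replicate block 2957 genes were higher and 2974 lower, and no call of a member changed. A crossed pairing, added after seeing the data, gave 3648 and 3627, with 7 members higher. With 2 libraries a group and the depth of these files, small changes are hard to call: Gsdme did not pass without M1 replicate 1, M0 replicate 1 or M0 replicate 2.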
